A study of Homo sapiens with 2 samples.

Results

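The miRNAs of the imprinted DLK1-DIO3 region on chromosome 14 were described in Jurkat cells, an immortalized human T-lymphocyte line, with and without overexpression of the long noncoding RNA PELATON. They were picked by name: every mature miRNA in the table whose number is among the 45 numbers of this cluster, with any letter or arm suffix. The table lists 1450 mature miRNAs, and 29 of them are DLK1-DIO3 miRNAs. In RefSeq 91 mature miRNAs on chromosome 14 carry these numbers, so many arms of the cluster had no row and are not analysed here.

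Jurkat cells infected with a PELATON overexpression lentivirus and selected with puromycin (overexpression) were compared with Jurkat cells given a control lentivirus (control), and the sample labels call the overexpressed transcript lnc-CEBPB-13. By the methods a kit for small RNA libraries was used, whereas the labels give an mRNA kit. Each group is 1 labelled sample, but its deposited mean resolved into whole reads of 2 libraries, here called A and B within a group. It is not stated whether A and B were separate cultures, so any p-value measures only the spread between these libraries. PELATON was not measured in the table, so the labels could not be checked against it, and every direction below is that of the libraries as labelled.

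An imprinted region is one in which a gene is read mainly from the copy inherited from a particular parent. In the DLK1-DIO3 region the protein-coding genes DLK1, RTL1 and DIO3 are read from the paternal copy, whereas the noncoding RNAs MEG3 and MEG8, the RTL1 antisense transcript and a long row of miRNA hairpins are read from the maternal copy. These miRNAs are best known from the embryo, the placenta and the brain, and a mature miRNA recognizes its targets mainly through its seed, bases 2 to 8 from the 5′ end.

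The sequences of the miRNAs that hold most of the reads are given here because each is told apart from the others by its own letters, with the seed in capitals (RefSeq, GRCh38.p14). All lie on the plus strand of chromosome 14.
miR-127-3p: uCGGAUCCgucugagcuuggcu
miR-379-5p: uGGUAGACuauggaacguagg
miR-134-5p: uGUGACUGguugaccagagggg
miR-494-3p: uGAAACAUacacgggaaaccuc
miR-411-5p: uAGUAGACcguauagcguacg
miR-409-3p: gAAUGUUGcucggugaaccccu
miR-381-3p: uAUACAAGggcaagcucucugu
miR-889-3p: uUAAUAUCggacaaccauugu

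All 29 members lie on the plus strand of chromosome 14 and come from 26 hairpin genes. The mature miRNAs of the cluster span 214 kb, from 100852409 to 101066786 of GRCh38. In the GENCODE annotation 3 members (miR-433-3p, miR-127-3p and miR-136-5p) lie antisense to RTL1, 11 lie within MEG8, 4 within MIR381HG and 4 within MEG9. The members are 21 to 23 bases long, 20 of them are 3p arms and 8 are 5p arms, and 13 begin with U and 12 with A. The 29 members have 29 different seeds, so no pair of them shares a seed.

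Several members are alike outside the seed. Counting exact matches from the 3′ end, 3 pairs share at least 8 bases, and their sequences are shown with the shared end in capitals, since reads of such arms are told apart only by their 5′ part.
miR-411-3p: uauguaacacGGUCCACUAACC
miR-758-3p: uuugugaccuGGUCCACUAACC
miR-329-3p: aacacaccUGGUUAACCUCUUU
miR-655-3p: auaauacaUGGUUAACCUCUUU
miR-543: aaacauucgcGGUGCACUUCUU
miR-495-3p: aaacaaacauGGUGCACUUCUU

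Members of these pairs had 1 to 5 reads each over all libraries. The nearest mature miRNAs of any member were 2 base edits away: miR-376b-3p and miR-376c-3p from miR-376a-3p, and miR-379-3p from miR-411-3p. How reads were assigned among these is uncertain, and miR-376a-3p, miR-376c-3p and miR-411-3p had 1 read each. The main member, miR-127-3p, was at least 7 edits from any other mature miRNA in RefSeq.

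The cluster was read at a very low level in both groups and at a higher level with PELATON overexpression. Its miRNAs took 78 and 47 reads in overexpression libraries A and B, against 31 and 8 reads in control libraries A and B. The overexpression libraries were the shallower ones, with 2052494 and 1177485 miRNA reads in all, against 2615868 and 2663279 in the control libraries. Both overexpression libraries therefore held more reads of the cluster than either control library, despite the smaller totals.

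Scaled to reads per 1e6 miRNA reads, the members summed to 38.0 (95% exact Poisson interval 30.04 to 47.4) and 39.9 (29.3 to 53.1) in the overexpression libraries. In the control libraries they summed to 11.9 (8.05 to 16.8) and 3.004 (1.30 to 5.92). The intervals of the overexpression libraries did not overlap those of the control libraries, and the 2 control intervals did not overlap each other either. Such intervals cover counting error only, since reads copied by PCR are not independent molecules.

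After division by the authors' size factors, which put libraries on a common scale, the summed level was 70.8 and 72.8 normalized reads in the overexpression libraries, against 24.8 and 6.79 in the control libraries. The group means of 71.8 and 15.8 gave a 4.55-fold higher summed level in overexpression, or 2.18 on the log2 scale. The ratio of pooled reads, each divided by the group's size factors, was 4.46 (95% exact Clopper-Pearson interval 3.09 to 6.56, counting error only). The size of this ratio depended on which control library was used: leaving out control library A gave a log2 value of 3.40, and leaving out control library B gave 1.53. In bulk RNA, more cells that carry these miRNAs and more of them per cell cannot be told apart.

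**Figure D1:**
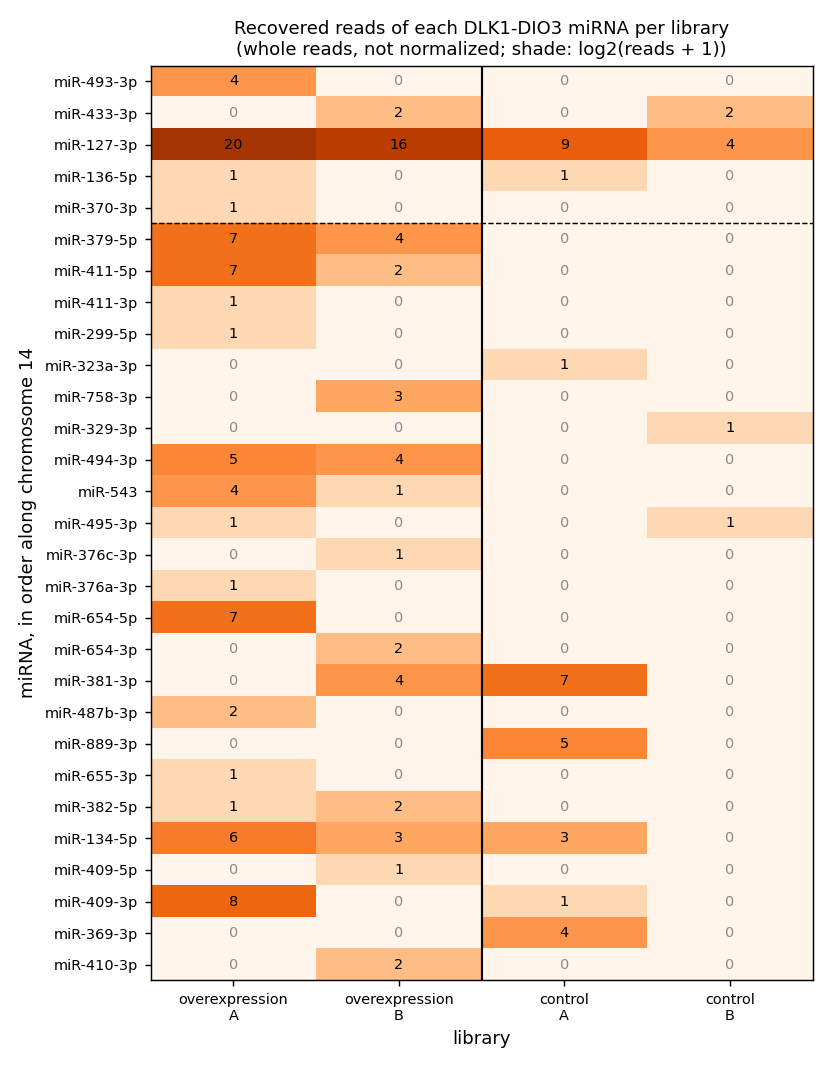
Recovered whole reads of each of the 29 DLK1-DIO3 miRNAs (rows, in order along chromosome 14) in the 4 libraries (columns, overexpression left of control), with the shade giving log2(reads + 1) and the dashed line parting the first stretch of the cluster from the miR-379/miR-410 block. miR-127-3p is the only row with reads in all 4 libraries, and most other rows hold reads in the overexpression columns and 0 in the control columns.

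Reads of the cluster were spread over few molecules per miRNA. Of the 29 members, 25 had reads in overexpression and 11 in control, with 18 read in overexpression only, 4 in control only and 7 in both. The member count of a library ran 18 and 14 in the overexpression libraries, against 8 and 4 in the control libraries. Of all miRNAs in the table, 1093 and 989 had reads in the overexpression libraries, against 1093 and 1182 in the control libraries. How many of all miRNAs were read in overexpression only or in control only was not counted. The member counts are therefore a description only. Among the members, 9 had a single read over all libraries and 16 had at most 3, which is the number of reads that a count of 0 allows. The 164 reads of the whole cluster therefore set the precision of everything that follows, and a member missing from a library is not shown to be absent from the cells.

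The cluster is usually divided into a first stretch by MEG3 and RTL1 and a distal stretch, the miR-379/miR-410 block, whose hairpins are cut from a shared long transcript. The 5 members of the first stretch (miR-493-3p, miR-433-3p, miR-127-3p, miR-136-5p and miR-370-3p) summed to 25.8 normalized reads in overexpression and 6.55 in control, 3.93-fold higher, with a pooled read ratio of 3.82 (exact interval 2.11 to 7.26). The 24 members of the miR-379/miR-410 block summed to 46.1 in overexpression and 9.25 in control, 4.98-fold higher, with a ratio of 4.90 (3.05 to 8.15). The intervals of both stretches overlapped widely, and a difference between them was not detectable at this depth. The first stretch made up 35.8% of the cluster's level in overexpression and 41.4% in control.

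In the miR-379/miR-410 block the control level came almost entirely from control library A. By library the block summed to 47.2 and 44.9 normalized reads in overexpression, against 16.8 and 1.70 in control. The 2 overexpression libraries were close to each other and above both control libraries, and control library B held only 2 reads of the block. The first stretch was more even, at 23.6 and 27.9 normalized reads in overexpression, against 8.005 and 5.09 in control.

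**Figure D2:**
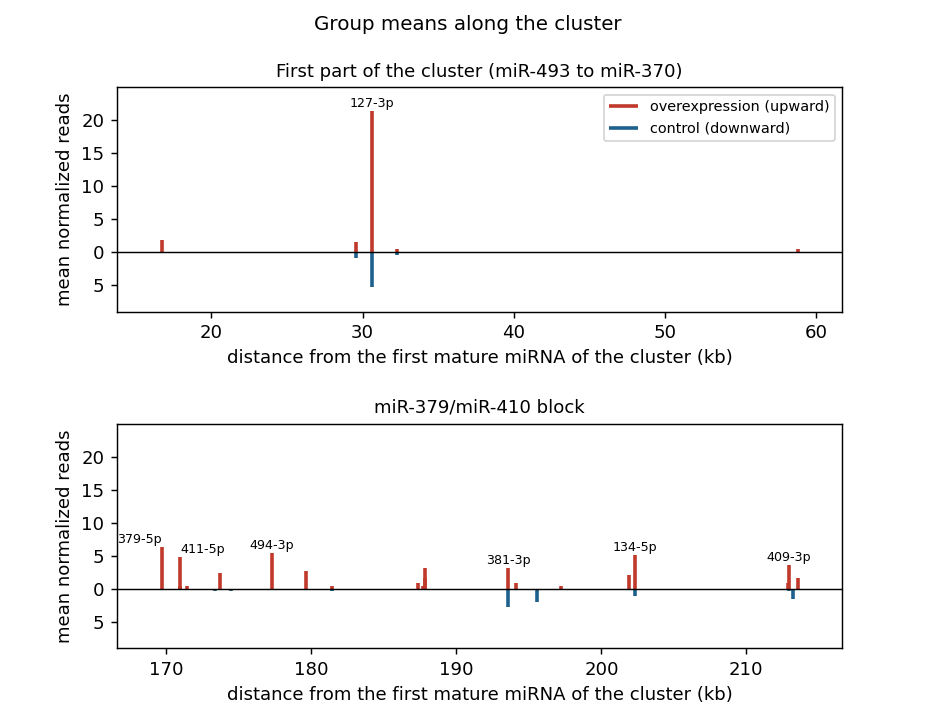
Mean normalized reads of each member (vertical axis, overexpression drawn upward and control drawn downward) against the distance in kb from the first mature miRNA of the cluster (horizontal axis), with the first stretch above and the miR-379/miR-410 block below. miR-127-3p stands alone at 21.5 in overexpression and 5.30 in control, and members across the miR-379/miR-410 block stay below 7 in both groups.

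A miRNA was called higher or lower at a 2-fold or larger ratio of its group means after 1 was added to both, provided that the mean of both groups was at least 1. The rule has no test. By it 10 members were higher in overexpression, 1 was lower, 2 were within 2-fold and 16 were under the minimum mean. Of the 1115 miRNAs with such a mean, 15.6% were higher and 14.7% were lower by the same rule. Low miRNAs pass such a fold more easily, and among miRNAs with a mean of 1 to 5, a range chosen after the data were seen, 27.7% were higher and 22.7% lower, beside 9 higher and 1 lower of the 12 members in that range. Members read almost only in overexpression reached the minimum mean through that group alone and so had to differ, and these counts are therefore a description only.

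The median log2 ratio was 1.73 over the 13 members at or above the minimum mean and 0.06 over all 1115 miRNAs. It is a description too, since 7 of the 13 had 0 control reads and met the minimum only through overexpression, and with no filter the median over all 29 members was 0.83. For members with 0 reads in a group the ratio depends on the pseudocount. With such members set at the bound that 3 reads give, and those with no more than 3 reads in the other group left out, the median over 11 members was 1.46.

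The libraries were also compared miRNA by miRNA by limma, on log2 normalized reads with a pseudocount of 1, with Benjamini-Hochberg adjustment over all 1115 miRNAs. No member passed an adjusted p of 0.05 by limma in either direction (0 rising and 0 falling), while 1.88% of all miRNAs rose and 3.05% fell. At an unadjusted limma p under 0.05 there were 4 of the 13 members tested, all higher in overexpression (miR-127-3p, miR-379-5p, miR-494-3p and miR-411-5p). Of all miRNAs tested, 8.43% were higher at that level. Of the 4 members, miR-379-5p, miR-494-3p and miR-411-5p had 0 control reads and met the minimum mean through overexpression alone. In 7 of the 13 members tested both overexpression libraries lay above both control libraries, beside 22.4% of all miRNAs tested. Members with 0 control reads that were read in both overexpression libraries had to be parted in this way. Both counts are therefore a description only. With 2 libraries a group and so few reads, a missed threshold does not show that the groups were alike.

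**Figure D3:**
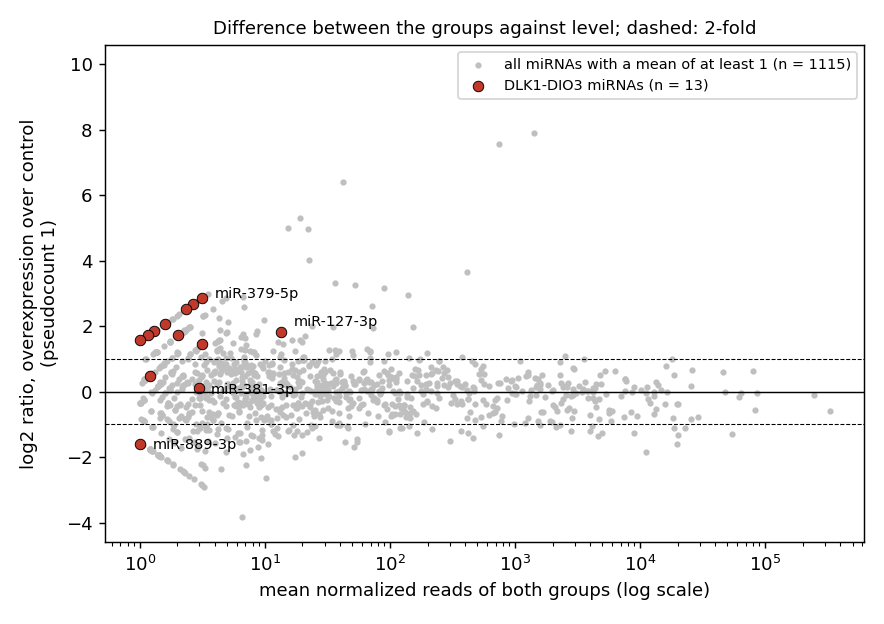
Log2 ratio of overexpression over control with a pseudocount of 1 (vertical axis) against the mean normalized reads of both groups on a log scale (horizontal axis), for all 1115 miRNAs with a mean of at least 1 (grey) and the 13 DLK1-DIO3 miRNAs among them (red), with dashed lines at 2-fold. The red points sit at the low end of the level axis, 10 above the upper dashed line and only miR-889-3p below the lower one, in a range where grey points also scatter widely.

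miR-127-3p, which lies antisense to RTL1 and in mice acts against the RTL1 transcript, was the most abundant member and the only one read in all 4 libraries. It lies at chr14:100883035-100883056 of GRCh38 and its letters stand first among the sequences above. It had 20 and 16 reads in overexpression libraries A and B, against 9 and 4 in control libraries A and B. Both overexpression libraries were above both control libraries before and after scaling. Its group means were 21.5 normalized reads in overexpression and 5.30 in control, which is 1.84 as a log2 ratio, and the pooled read ratio was 3.85 (exact interval 1.99 to 7.91). The limma log2 difference was 1.89 with an SE of 0.67 and a Benjamini-Hochberg adjusted p of 0.172 (unadjusted 0.0214). Even so it ranked only 547th of 1450 miRNAs by mean level.

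The cluster's higher level did not rest on miR-127-3p alone. Without it the other 28 members summed to 50.4 normalized reads in overexpression and 10.5 in control, 4.79-fold higher, with a pooled read ratio of 4.76 (exact interval 3.04 to 7.68).

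miR-379-5p, the first hairpin product of the miR-379/miR-410 block, had the most reads of the members with none in control. It lies at chr14:101022071-101022091 of GRCh38 and had 7 and 4 reads in the overexpression libraries, against 0 and 0 in the control libraries. Reads were thus confined to the overexpression libraries, in both of them. The overexpression mean was 6.28 normalized reads, at least 5.08-fold higher than the 1.24 normalized reads that 3 reads over both control libraries would give. The limma log2 difference was 2.86 with an SE of 0.94 and a Benjamini-Hochberg adjusted p of 0.150 (unadjusted 0.0149).

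The seed of miR-379-5p occurs once more in RefSeq, in miR-3529-5p on chromosome 15. That miRNA had 0 reads in the overexpression libraries and 0 and 1 in the control libraries. The reads of miR-379-5p were therefore not matched by its seed partner.

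miR-411-5p comes from the hairpin next to that of miR-379, at chr14:101023340-101023360 of GRCh38. It had 7 and 2 reads in the overexpression libraries, against 0 and 0 in the control libraries. Like miR-379-5p it was read in both overexpression libraries and in neither control library. Its overexpression mean of 4.73 normalized reads was at least 3.83-fold higher than the control floor, with a limma log2 difference of 2.46, an SE of 0.98 and a Benjamini-Hochberg adjusted p of 0.224. The other arm, miR-411-3p, had 1 read, in overexpression library A.

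miR-494-3p lies at chr14:101029681-101029702 of GRCh38. It had 5 and 4 reads in the overexpression libraries, against 0 and 0 in the control libraries, the third member with this pattern and at least 9 reads. The overexpression mean of 5.37 normalized reads was at least 4.35-fold higher than the control floor. The limma log2 difference was 2.66 with an SE of 0.95 and a Benjamini-Hochberg adjusted p of 0.178.

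miR-134-5p, which in rat neurons limits the size of dendritic spines through Limk1, lies at chr14:101054694-101054715 of GRCh38. It had 6 and 3 reads in the overexpression libraries, against 3 and 0 in the control libraries. Scaled by the size factors these were 5.45 and 4.65 normalized reads in overexpression, against 2.40 and 0 in control, so the groups did not overlap. Its means were 5.05 normalized reads in overexpression and 1.201 in control, which is 1.46 as a log2 ratio, and the pooled read ratio was 4.17 (exact interval 1.04 to 23.9). The limma log2 difference was 1.71 with an SE of 1.00 and a Benjamini-Hochberg adjusted p of 0.427.

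miR-409-3p showed how much a single library could decide. It lies at chr14:101065346-101065367 of GRCh38 and had 8 and 0 reads in the overexpression libraries, against 1 and 0 in the control libraries. The groups overlapped, since overexpression library B was at 0. Its means of 3.63 normalized reads in overexpression and 0.400 in control gave a log2 ratio of 1.73, and without overexpression library A the log2 ratio was -0.49. The limma log2 difference was 1.10 with an SE of 1.25 and a Benjamini-Hochberg adjusted p of 0.726. The other arm, miR-409-5p, had 1 read, in overexpression library B.

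The members that follow were chosen after their values were seen, to show the remaining patterns. miR-654-5p had 7 and 0 reads in the overexpression libraries, against 0 and 0 in the control libraries, so that its log2 ratio of 2.06 became 0 without overexpression library A. miR-543 had 4 and 1 reads in the overexpression libraries, against 0 and 0 in the control libraries, at least 2.10-fold higher than the control floor. Both were higher by the 2-fold rule, and their Benjamini-Hochberg adjusted limma p values were 0.633 for miR-654-5p and 0.417 for miR-543.

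Other members had 3 or 4 reads. miR-382-5p had 1 and 2 reads in the overexpression libraries, against 0 and 0 in the control libraries. miR-758-3p had 0 and 3 reads in the overexpression libraries, against 0 and 0 in the control libraries. Both passed the 2-fold rule on a mean of at least 1, yet no bound on their fold can be given from 3 reads. miR-493-3p, with 4 and 0 reads in the overexpression libraries and none in the control libraries, was at least 1.47-fold higher than the control floor but under the minimum mean.

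Some members did not share the direction of the cluster. miR-381-3p had 0 and 4 reads in the overexpression libraries, against 7 and 0 in the control libraries, each group being read in a single library. Its means of 3.10 normalized reads in overexpression and 2.80 in control gave a log2 ratio of 0.11 and a pooled read ratio of 0.794 (exact interval 0.171 to 3.12). The sign of this small difference turned with the library left out, with log2 ratios from -1.93 to 2.04. The Benjamini-Hochberg adjusted limma p was 0.987.

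miR-889-3p was the only member lower by the 2-fold rule. It had 0 and 0 reads in the overexpression libraries, against 5 and 0 in the control libraries, so its control mean of 2.001 normalized reads came from control library A alone. The control mean was at least 1.17-fold above the 1.72 normalized reads that 3 reads over both overexpression libraries would give. Its log2 ratio was -1.59 with a Benjamini-Hochberg adjusted limma p of 0.682, and it became 0 without control library A. Without control library B limma called it lower (adjusted p = 0.0244 by Benjamini-Hochberg), together with miR-369-3p, which had 0 and 0 reads in the overexpression libraries, against 4 and 0 in the control libraries. In that fit control is a lone library that is assumed to vary like the overexpression libraries, and both overexpression libraries were at 0 for these miRNAs.

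Reads of some members fell in only 1 library of a group. For miR-381-3p in both groups, and narrowly for miR-409-3p, the exact interval left out the share that the size factors alone would give. These members are singled out because all their reads in a group fell in 1 library. The intervals are not adjusted for that choice, so they cannot exclude counting error. The other intervals for such members rest on few reads and are wide. All 7 control reads of miR-381-3p were in library A (100%, exact Clopper-Pearson interval 59.0 to 100%), where the size factors alone would place 51.5%, and 0 of its 4 overexpression reads were in library A (0%, 0 to 60.2%), where 63.0% would be placed. All 8 overexpression reads of miR-409-3p were in library A (100%, 63.1 to 100%), an interval that leaves out 63.0% only narrowly. For miR-654-5p, with all 7 overexpression reads in library A (100%, 59.0 to 100%), and for miR-889-3p, with all 5 control reads in library A (100%, 47.8 to 100%), the interval holds the share set by the size factors, as it does for miR-493-3p and miR-369-3p. For comparison, 55.6% (38.1 to 72.1%) of the overexpression reads of miR-127-3p were in library A, an interval that holds the 63.0% set by the size factors. Across the cluster 11 members were read in overexpression library A and not in B, 7 in B and not in A, 7 in control library A and not in B, and 3 in B and not in A.

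The remaining members were at or near the limit of detection. miR-433-3p, also antisense to RTL1, had 0 and 2 reads in the overexpression libraries and 0 and 2 in the control libraries. miR-136-5p, the third antisense member, had 1 and 0 reads in the overexpression libraries and 1 and 0 in the control libraries. Neither showed a difference between the groups that could be told from 0 at this depth. The rest of the cluster (for example miR-376a-3p, whose relatives in brain are known for RNA editing within the seed, and miR-410-3p at the distal end) had 1 or 2 reads each.

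Other lists of miRNAs were set beside the cluster to see whether its difference was shared. The imprinted cluster of chromosome 19 (C19MC), active mainly in the placenta, had 7 miRNAs in the table and summed to 7.27 and 6.20 normalized reads in the overexpression libraries, against 2.40 and 7.64 in the control libraries. These sums rest on 8 and 4 reads in the overexpression libraries, against 3 and 9 in the control libraries. The groups overlapped, unlike those of the DLK1-DIO3 cluster, but with so few reads a difference could be missed. Of its members with a mean of at least 1, 1 was higher by 2-fold (miR-518b, 3.63 in overexpression and 1.27 in control) and 1 was lower (miR-520a-3p, 0 in overexpression and 2.10 in control). miR-517a-3p, at 1.55 in overexpression and 0 in control, rests on 2 reads.

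miRNAs of other imprinted loci were far more abundant as a list, owing mostly to miR-296-3p. They summed to 6654 and 8351 normalized reads in the overexpression libraries, against 5493 and 4466 in the control libraries, so that here too both overexpression libraries lay above both control libraries. Of the 6 listed, 5 had a mean of at least 1, with 2 higher by 2-fold (miR-483-5p and miR-335-5p) and 1 lower (miR-483-3p), and the last 2 are named because of their values. miR-296-3p, from the GNAS locus, was at 6417 in overexpression and 4128 in control, with a Benjamini-Hochberg adjusted limma p of 0.141. miR-296-5p was at 1069 in overexpression and 839 in control. miR-483-5p, from an intron of IGF2, was at 12.0 in overexpression and 4.92 in control.

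A list of miRNAs taken as neighbours on the same chromosome band, and by number not members of the cluster, had 8 in the table. Of these 6 had a mean of at least 1, and 0 differed by 2-fold. Their positions were not checked, so some may lie within the imprinted domain or elsewhere. The 8 summed to 28209 and 23586 normalized reads in the overexpression libraries, against 21437 and 26138 in the control libraries. miR-342-3p, from an intron of EVL, was at 16508 in overexpression and 16533 in control, and miR-345-5p was at 8634 in overexpression and 6536 in control. miR-342-5p was at 610 in overexpression and 515 in control. The groups overlapped here, and the difference of this sum from that of the cluster was not tested.

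As summed lists, marker miRNAs of muscle, of smooth muscle and fibroblasts, and of red blood cells were also higher in overexpression. Of 6 striated muscle miRNAs in the table, 5 rose by limma (Benjamini-Hochberg), and the list summed to 4105 and 4925 normalized reads in the overexpression libraries, against 56.0 and 33.1 in the control libraries. miR-1-3p was at 2847 in overexpression and 10.9 in control, miR-133a-3p at 1488 in overexpression and 6.92 in control, and miR-206 at 84.2 in overexpression and 0 in control. In control miR-206, miR-133b and miR-133a-5p were at 0, and none of the 6 was at 0 in overexpression.

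Of 10 miRNAs of smooth muscle and fibroblasts, 6 rose by limma and 0 fell. The list summed to 931 and 993 normalized reads in the overexpression libraries, against 218 and 231 in the control libraries, with none at 0 in either group. It includes miR-10b-5p, which the paper reports as lowered by PELATON overexpression. In the libraries as labelled, 8 of the list were higher by 2-fold and 0 were lower. The reason for this difference from the paper was not tested. Of 4 miRNAs of red blood cells 1 rose by limma (miR-486-5p, at 769 in overexpression and 60.4 in control). The list summed to 769 and 1129 in the overexpression libraries, against 160 and 122 in the control libraries, and miR-486-5p made up most of its overexpression level. miR-451a was at 158 in overexpression and 67.7 in control, with a Benjamini-Hochberg adjusted limma p of 0.0924. miR-144-3p was at 21.3 in overexpression and 11.4 in control, with an adjusted limma p of 0.527. The part of these cell types in the level of the DLK1-DIO3 miRNAs was not tested.

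Neuronal miRNAs, of interest because the brain is a known site of this cluster, were slightly lower as a sum in the overexpression libraries. The 8 in the table summed to 50808 and 52494 normalized reads in the overexpression libraries, against 57927 and 53110 in the control libraries. By limma 1 rose (miR-124-3p) and 1 fell (miR-9-5p). Most of the sum was miR-128-3p, at 47286 in overexpression and 47689 in control. The lower sum came mostly from miR-9-5p, at 4091 in overexpression and 7554 in control, so it does not describe the list member by member. The median log2 ratio of the list was -0.20. The miRNAs of T cells and other leukocytes, listed because the line is a T-lymphocyte line, were abundant as a list. They summed to 367786 and 347216 normalized reads in the overexpression libraries and 371255 and 393260 in the control libraries. The highest, miR-181a-5p, was at 237970 in overexpression and 253427 in control. Next came miR-181b-5p, at 84656 in overexpression and 87080 in control, and miR-342-3p, given above. Together with miR-181a-5p these made up most of the sum, which therefore says little of the other markers. The median log2 ratio of the leukocyte list was -0.09, with 1 of 9 rising (miR-146a-5p) and 1 falling (miR-142-5p) by limma. miR-146a-5p, miR-142-5p, miR-124-3p, miR-133b and miR-133a-5p are named because of their values.

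**Figure D4:**
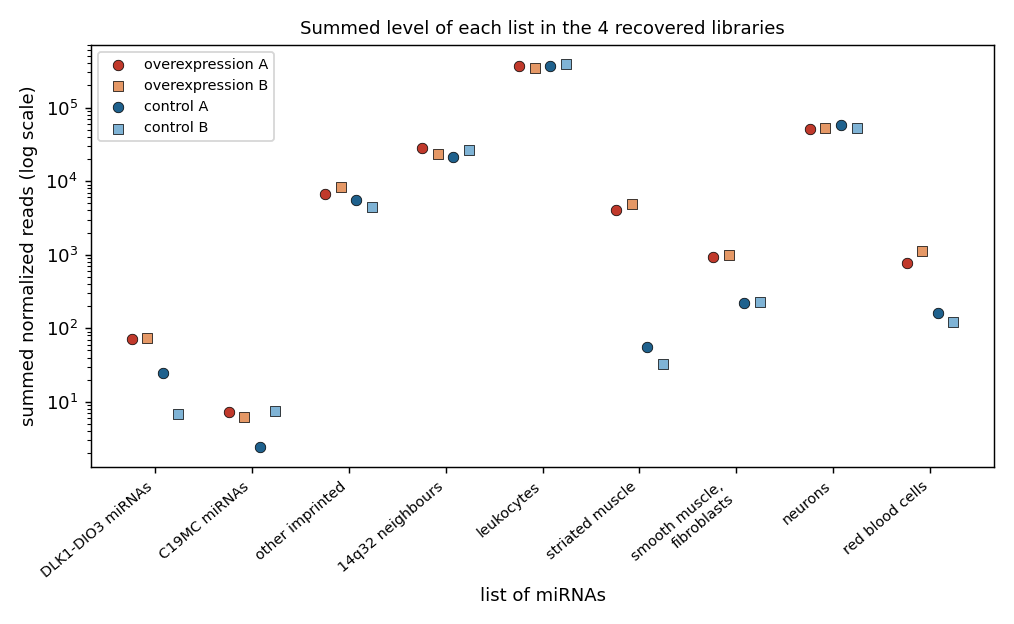
Summed normalized reads of the DLK1-DIO3 miRNAs and of each comparison list (vertical axis, log scale) in the 4 libraries, with overexpression libraries in red and orange left of control libraries in blue. The DLK1-DIO3 sums of 70.8 and 72.8 in overexpression lie above those of 24.8 and 6.79 in control. So do the muscle, smooth muscle and fibroblast, red blood cell and other imprinted sums. The groups of C19MC and of the chromosome 14 neighbours overlap, and the neuron and leukocyte sums are slightly lower in both overexpression libraries.

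Seeds of members that occur in miRNAs outside the cluster gave a further comparison. miR-329-3p, with 0 reads in the overexpression libraries and 0 and 1 in the control libraries, shares its seed with miR-362-3p of chromosome X, which was at 34.8 normalized reads in overexpression and 59.3 in control. miR-655-3p, with 1 read in overexpression library A, shares its seed with miR-374c-5p, which was at 1.82 in overexpression and 12.3 in control. For these seeds nearly all reads came from miRNAs outside the cluster. The seed of miR-134-5p went the other way: it occurs also in miR-3118, which had 1 and 0 reads in the overexpression libraries and 0 and 0 in the control libraries, fewer than miR-134-5p itself.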

How the data were processed

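Small RNA reads of Jurkat cells were represented by 2 samples, 1 labelled overexpression and 1 labelled control. The deposited signal values are reads per mature miRNA divided by size factors from DESeq and averaged within a group by the authors, on GRCh38.p14 per the labels. The aligner, trimming and miRNA annotation are not given in the sources used here. The deposited table also holds the authors' fold change of control over overexpression, its log2 value, p-values and adjusted p-values, and these were not used.

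Each group mean was solved as a whole-number combination of 2 steps, 1 per library. Whole reads came out for 100% of 1450 values in both groups (relative tolerance 1e-12, absolute tolerance 1e-09), with 0 values allowing several solutions. The size factors were 1.10 and 0.645 for the overexpression libraries and 1.25 and 1.18 for the control libraries. The letters A and B pair nothing across groups. The spread between the libraries of a group exceeded counting error: among miRNAs with 20 or more reads, chi-square divided by its degrees of freedom was 32.6 in overexpression and 143 in control.

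Each ratio has overexpression on top and is given as log2 after 1 was added to both means, a step that shrinks differences of low miRNAs. Libraries were compared by limma 3.58.1 in R 4.3.3 with a trended prior variance and Benjamini-Hochberg adjustment across all miRNAs whose mean reached 1. The limma step was also run on simulated libraries of miRNAs at all levels, which does not measure its power for members with so few reads. A fold against a group at 0 is a bound at 3 reads over both libraries. Named were members with a mean of at least 10, an adjusted p under 0.05, or a 2-fold difference and a mean of at least 2, those with 0 reads in 1 group and at least 10 in the other, both arms of the hairpins so named, and the 3 most abundant miRNAs of each comparison list; others are said to be chosen afterwards. miRNAs named by the rule without a row in the table are not analysed here. The members and lists were chosen with earlier results of these data known. Alternatives were scaling by total reads, TMM and upper quartile, pseudocounts of 0.5 and 5, no filter, a mean of at least 10, thresholds of 1.5-fold and 4-fold, no variance trend, and leaving out each library. Of the table's entries 1285 were found in RefSeq, from which sequences and positions came. Host genes came from GENCODE.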

Additional observations from a re-analysis of the deposited data

How the results depend on the processing

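The summed level of the cluster was higher in overexpression under every scaling and without each library, and its log2 ratio (2.18) ran from 1.53 without control library B to 3.40 without control library A. The 10 members higher by 2-fold became 3 with a pseudocount of 5, 1 with a mean of at least 10 and 4 at a 4-fold threshold. The 1 lower member became 0 with total-read scaling, a pseudocount of 5, a mean of at least 10 or a 4-fold threshold, 2 with no filter, and 0 to 2 without single libraries. The median log2 ratio (1.73) was 2.32 with a pseudocount of 0.5, 0.68 with a pseudocount of 5, 0.83 with no filter, and 1.59 to 2.21 without single libraries. Limma called 0 members rising under each alternative and 0 falling, except 2 without control library B, so that the fits without single libraries gave 0 to 2 falling. The sign of miR-381-3p (0.11) turned to -0.040 with upper-quartile scaling and ran from -1.93 to 2.04 without single libraries, and miR-409-3p (1.73) ran from -0.49 to 2.56. Fits without a library leave a group with 1 library, which is assumed to vary like the other group. Total-read scaling placed the median of all miRNAs at 0.28, against 0.06 with the authors' size factors. The cause of these shifts was not tested. No paired analysis was possible because the labels give no replicate numbers. With 164 reads in all, only miR-127-3p had a mean of at least 10, and single members cannot be ranked at this depth.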
